A study of Mus musculus with 13 samples.

Results

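Colorectal tumors of mice given a combination of microRNAs were compared with tumors of control mice on 9 of the 13 arrays of the series. Members were chosen by their titles: 2 arrays of tumor tissue from mice injected with microRNAs (microRNA tumors 1 and 2) and 7 arrays of tumors from CPC-Apc mice (control tumors 1 to 7). The genotype of all mice was CDX2P-NLS Cre;Apc+/loxP, abbreviated CPC-Apc: a Cdx2 promoter drives a Cre recombinase that deletes 1 floxed allele of Apc in the cells where it is active. The microRNA group received miR-200c, miR-302 (-a, -b, -c and -d) and miR-369 (-3p and -5p), 25 µg of each, in 24 tail vein injections at 3 a week from 8 weeks of age, carried by super carbonate apatite in saline with 0.5% albumin. A negative control microRNA in a matching amount was the alternative treatment. The titles of the control tumors name only the genotype, and the negative control appears for them as a code in the description. The remaining 4 arrays, 2 of normal colorectal tissue from each group of mice, entered the fit and serve below as background levels. No label states the age at collection, the sex, the size or the site of a tumor, or which mouse gave it, so several tumors may share a mouse and p-values measure only the spread between samples.

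MicroRNAs are short RNAs that guide Argonaute proteins to messenger RNAs, mostly through pairing of the seed (bases 2 to 8) with the 3′ untranslated region, which lowers translation and, to a varying degree, the level of the message. An array of messenger RNA reads only the second of these. The miR-200 family is known for repressing the transcription factors Zeb1 and Zeb2, which silence E-cadherin. The miR-302 family is abundant in embryonic stem cells, and this combination of microRNAs is known for its use in reprogramming somatic cells.

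The mature mouse sequences are shown because some of the gene lists below hold genes reported as targets of these microRNAs or linked to them. Seed matches in messenger RNAs were not counted. They are RefSeq records on GRCm38.p6, printed 5′ to 3′ with the seed in capitals. The records held 11 arms of the injected families, of which the 3p arms and miR-369-5p are printed, and the other 5p arms are not. The labels give the arm only for miR-369, and miR-302a-3p is named only. The miR-302b-3p and miR-302d-3p arms share the seed AAGUGCU, and the record of miR-302c-3p starts at a different base, so its bases 2 to 8 read AGUGCUU. The miR-200c-3p and miR-369-3p seeds are AAUACUG and AUAAUAC.
miR-200c-3p: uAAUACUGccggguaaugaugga
miR-302b-3p: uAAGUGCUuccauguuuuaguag
miR-302c-3p: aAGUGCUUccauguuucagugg
miR-302d-3p: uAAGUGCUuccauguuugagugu
miR-369-3p: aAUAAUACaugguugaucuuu
miR-369-5p: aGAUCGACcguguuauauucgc

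Total RNA was read in 1 colour, and every level below is a log2 signal minus the log2 75th percentile of its array; a level of 0 is the brightness of that percentile. Between 51.3% and 57.0% of probes were well above background on the 9 tumor arrays, and the 75th percentile of the signal ran from 415 to 740. The arrays lay on 2 slides, scanned apart. MicroRNA tumor 1 and control tumor 3 were on slide 2, and microRNA tumor 2 and the other 6 control tumors were on slide 1. Each difference could therefore also be read within a slide, with 1 microRNA tumor in each.

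The first question was whether any gene separated the microRNA tumors from the control tumors. A single gene of 25370 was called in limma's moderated test with Benjamini-Hochberg adjusted p under 0.05, which is 0.00394% of the genes tested, and it was higher in the microRNA tumors. No gene was called lower. The adjusted p of every other gene was 0.504 or more. At an unadjusted p under 0.05 there were 533 genes (2.10%), 285 higher and 248 lower. A median gene had a standard error of 0.33 on the log2 scale and a 95% interval of 0.72 to either side, so the 9 arrays would not resolve a change smaller than that in a typical gene. The intervals given below are those of single genes, not adjusted for the number of genes.

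Most genes of the microRNA tumors lay inside the spread of the control tumors. Of 25346 genes with a value on all 9 tumors, microRNA tumor 1 was between the lowest and the highest control tumor at 76.6% and microRNA tumor 2 at 84.5%. Both were inside at 16694 genes (65.9%). Both lay above every control tumor at 310 genes (1.22%) and below every one at 323 (1.27%), 2.50% together. At a further 587 genes the pair lay outside on opposite sides, with 1 above and the other below. MicroRNA tumor 1 was below all control tumors at 3637 genes and above at 2300, while microRNA tumor 2 was below at 1906 and above at 2029.

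Over all pairs, whatever the slide, the microRNA tumors were no more like each other than control tumors were. Their correlation over genes was 0.971, against 0.931 to 0.986 (median 0.960) in the 21 pairs of control tumors and 0.950 to 0.988 (median 0.969) in the 14 mixed pairs; genes are not independent replicates, and these are descriptions. The microRNA tumors differed by more than 2-fold at 4499 genes (17.8%), where pairs of control tumors differed at 6.86% to 31.9% (median 17.4%). They lay on different slides, though, while many control pairs shared a slide. Control pairs across the slides, all with control tumor 3, had correlations of 0.931 to 0.960 and differed at 22.2% to 31.9%. Mixed pairs across the slides had at most 0.969 and differed at 17.9% or more. Among pairs across the slides the microRNA pair was thus the most alike. The array most like microRNA tumor 2 was control tumor 2, on the same slide, with a correlation of 0.988 and 5.09% of genes past 2-fold. For microRNA tumor 1 it was control tumor 3, again the same slide, at 0.979 and 10.9%. On the second principal component of the 9 tumors, which held 24.5% of the variance, the arrays of slide 2 stood apart at 79.9 (microRNA tumor 1) and 66.2 (control tumor 3), with the other 7 tumors between -72.2 and 16.1. Control tumor 3 was the highest or lowest of all 9 at 38.7% of genes, more often than either microRNA tumor (22.4% and 14.1%).

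**Figure D1:**
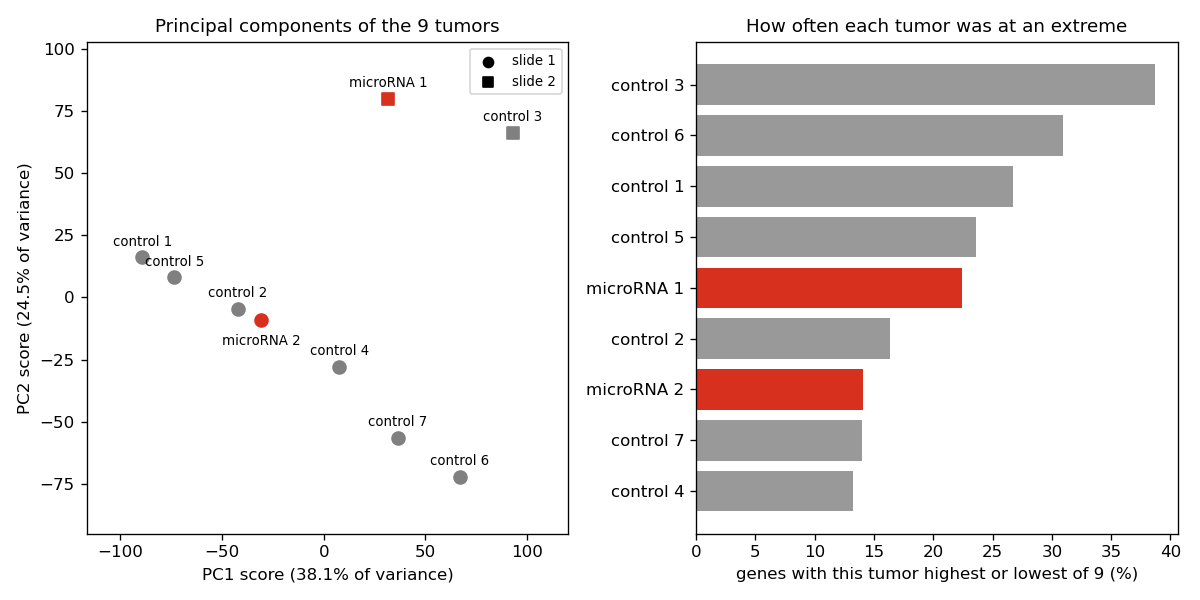
Left, scores of the 9 tumors on the first and second principal components of all genes, with red for microRNA tumors and grey for control tumors, circles for slide 1 and squares for slide 2. Right, the percentage of genes at which each tumor had the highest or lowest level of the 9. The microRNA tumors lie with control tumors of their own slide, and their 22.4% and 14.1% lie within the 13.3% to 38.7% of the control tumors.

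Olfr1055, an olfactory receptor gene, was the gene called. Its level was -4.58 and -3.40 in microRNA tumors 1 and 2. Control tumors lay at -6.84, -6.62 and -6.34 for the lowest, the median and the highest, so the groups did not overlap. The probe was well above background on both microRNA tumors and on no control tumor, which leaves a bound of at least 1.58-fold higher. This bound sets the mean of the microRNA tumors against the dimmest signal well above background on each control array. The limma test took the difference of 2.65 instead (adjusted p = 0.0427), with control values that were all not well above background. The 2 microRNA tumors were enough to meet the filter of 2 or more arrays. Normal tissue had -4.83 ± 0.40 (SD, n = 2) in microRNA mice and -4.84 ± 0.50 (SD, n = 2) in control mice, close to microRNA tumor 1. Its mm9 probe position is chromosome 2, 86186983 to 86187042 (NM_147021). The call was lost without microRNA tumor 2 and without any 1 of the 7 control tumors, with an adjusted p between 0.0721 and 0.209, and with the 9 tumors fitted alone it was 0.118. The array names carry a number that no label explains, 5 for control tumors 1 and 2, 6 for control tumors 4 to 7 and 10 for control tumor 3. The number is 8 for microRNA tumor 1 and 2 for microRNA tumor 2. Each of these 2 tumors shares it with a normal array of the microRNA mice, and control tumor 3 with a normal array of the control mice. Whether it marks a mouse is not stated. With that number as a random block (correlation 0.303) the adjusted p was 0.0610. With normexp background correction the difference was 0.60 and the adjusted p 0.9996.

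Among the genes ranked next, which did not pass, several were dim. Atp6ap1l, related to an accessory subunit of the vacuolar proton pump, was at -4.22 and -4.95 against -6.84 to -6.04 in control tumors, and was above background on 1 microRNA tumor only. Wfdc12, a protease inhibitor with a whey acidic protein domain, was at 0.19 and -1.53, while control tumors ran from -6.33 through a median of -5.22 to -2.43; the difference was 4.16 (95% interval 2.29 to 6.03, adjusted p = 0.9995). Its values within slides were 3.05 and 6.53. Col8a1, a short-chain collagen of vessel walls, was at -2.04 and -2.58 against -3.81 to -3.04, a difference of 1.08 (0.52 to 1.65). Myh8, the perinatal skeletal muscle myosin, was at -4.31 and -4.05 in microRNA tumors and not well above background in any control tumor, at least 1.39-fold higher. Skeletal muscle markers as a list did not stand out in the tumors, as given below.

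On the lower side no gene passed. Mmp9, the gelatinase of neutrophils and macrophages, was at -1.69 and -1.57 in the microRNA tumors. In control tumors it ran from -0.90 through -0.09 to 1.29, so both microRNA tumors were below all of them. The difference was -1.64 (-2.68 to -0.60), with -1.60 and -1.59 within slides 1 and 2, and it did not pass the test. On mm9 its probe (NM_013599) covers bases 164780620 to 164780679 of chromosome 2. Bpifb1, a mucosal secretory protein, was at -4.27 and -3.24 against -3.21, -0.69 and 0.23, a difference of -2.76 (-4.49 to -1.02). Mug1, a protease inhibitor of the macroglobulin family, was at -6.42 and -6.80, not well above background on either, against -5.58 to -1.57, at least 3.03-fold lower. Art5, an ADP-ribosyltransferase, was at least 1.56-fold lower by the same kind of bound, with -6.06 and -5.12 against -4.62 to -3.79. Bicra, a subunit of a chromatin remodelling complex, was at -4.47 and -4.55 against -4.17 to -3.18.

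**Figure D2:**
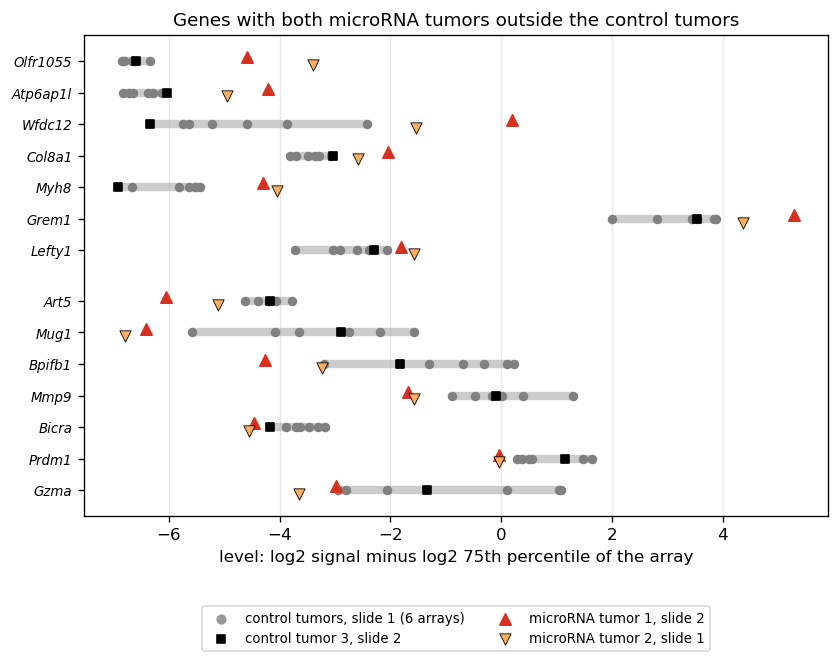
Level of 14 genes (x axis, log2 signal minus the log2 75th percentile of the array) in each tumor; the grey bar spans the 7 control tumors, and red and orange triangles are microRNA tumors 1 and 2. In all 14 both microRNA tumors lie outside the bar, and only Olfr1055 was called.

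Gene lists were then read for groups of genes that lay apart together. There were 46 lists with 612 measured members. None of these was called. An unadjusted p under 0.05 was found for 21 of the 612, beside 533 of all 25370 genes (2.10%), and the lists were chosen with earlier results of these data known. Both microRNA tumors lay outside the control tumors on the same side at 15 members (2.45%), beside 2.50% of all genes. For the mean level of a list on each array, both microRNA tumors lay inside the range of the control tumors in 37 lists, 1 lay outside in 9, and in none did both. The median log2 difference over all genes was -0.0023. Under another scaling or background correction the median changed sign in 17 lists, all of which lie between -0.058 and 0.13 here, so medians of that size carry no direction.

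**Figure D3:**
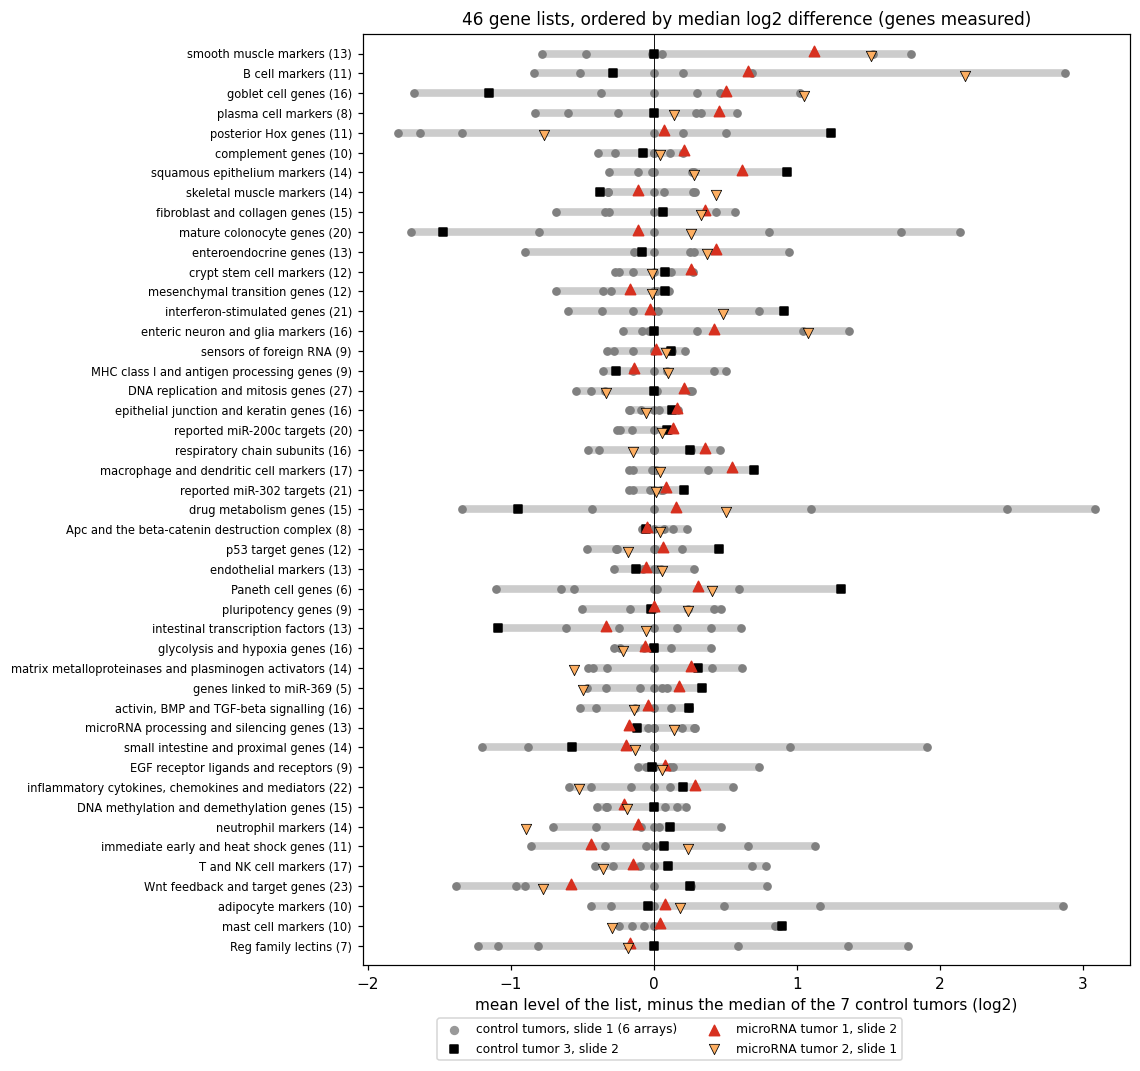
Mean level of each of 46 gene lists on each tumor, minus the median of the 7 control tumors (x axis, log2), ordered by the list's median log2 difference, with the number of genes measured in brackets. Grey bars span the control tumors and triangles are the microRNA tumors; in 37 lists both triangles lie on the bar.

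Reported targets of the injected microRNAs were read first. In the miR-200c list the median log2 difference was 0.09 over 20 measured genes, 12 higher and 8 lower, and none was called. The list's mean level was 0.51 in microRNA tumor 1, just above the highest control tumor at 0.49, and 0.43 in microRNA tumor 2, with 4 control tumors below it. Zeb1, which represses epithelial genes, was at 0.08 and 0.03 in the microRNA tumors against -0.86, -0.39 and 0.14 for the lowest, median and highest control tumor, a difference of 0.41 (-0.12 to 0.93). Its partner Zeb2 was at 0.02 and 0.09 against -0.68, -0.18 and 0.23, a difference of 0.25 (-0.37 to 0.87). Both were thus in the upper part of the control range. These intervals take samples as independent. When the arrays were not scaled to each other, the Zeb1 difference was 0.24 with a standard error of 0.34. Repression of Zeb1 by miR-200c was not tested. Bmi1, a polycomb protein of stem cells, differed by 0.05 (-0.61 to 0.70), the fibronectin gene Fn1 by 0.35 (-0.21 to 0.91) and the membrane linker moesin (Msn) by 0.29 (-0.17 to 0.76). The collagen cross-linking enzyme Lox differed by 0.74 (-0.39 to 1.87), with -0.59 in microRNA tumor 1, above all control tumors, and -1.77 in microRNA tumor 2, inside their range.

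E-cadherin (Cdh1), the adhesion protein of epithelial cells that Zeb factors repress, was at 4.86 and 4.59. Control tumors were at 4.23, 4.40 and 4.58, so both microRNA tumors lay above all of them, microRNA tumor 2 by very little. The difference of 0.32 (-0.08 to 0.72) did not pass the test, and within slides 1 and 2 it was 0.20 and 0.38. The 16 epithelial junction and keratin genes had a median difference of 0.10, 11 higher and 5 lower. Vimentin (Vim), the intermediate filament of mesenchymal cells, was at 4.78 and 4.29 inside a control range of 2.88 to 5.75. Mesenchymal transition genes had a median of 0.17 over 12 genes. No epithelial or mesenchymal gene of these lists was called.

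The miR-302 list had a median difference of 0.05 over 21 genes, 12 higher and 9 lower. Its cell cycle members lay inside the control range: cyclin D1 (Ccnd1) differed by 0.09 (-0.45 to 0.62) and the cyclin-dependent kinase inhibitor Cdkn1a by -0.33 (-0.93 to 0.27). The TGF-beta receptor Tgfbr2 was at 3.85 and 3.69 against 3.39 to 4.00, a difference of 0.14 (-0.28 to 0.57). Lats2, a kinase of the Hippo pathway, differed by 0.15 (-0.29 to 0.59). Lefty1, a secreted inhibitor of Nodal signalling, lay farthest from the controls in this list, on the higher side. It was at -1.80 and -1.57 against -3.73, -2.61 and -2.05, above all control tumors, a difference of 1.03 (0.25 to 1.82), with 1.22 and 0.50 within slides. Normal tissue had -1.89 ± 0.057 (SD, n = 2) in microRNA mice and -0.93 ± 0.10 (SD, n = 2) in control mice. These 2 lists' medians turned to -0.08 and -0.12 when the arrays were not scaled to each other, a setting that moved the median of all genes to -0.17.

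Epigenetic regulators are among the genes that miR-302 is reported to lower. The methyl-DNA binding protein Mbd2 differed by -0.03 (-0.39 to 0.33). The histone demethylase Kdm1b differed by 0.38 (-0.10 to 0.85). Dnmt1, the maintenance DNA methyltransferase, was at 0.39 and 0.32 against -0.19, 0.35 and 0.90, a difference of -0.01 (-0.65 to 0.62). Over 15 genes of DNA methylation and demethylation the median was -0.18, with 11 lower and 4 higher; Tet2, which oxidises methylcytosine, was at 1.10 in microRNA tumor 1, below all control tumors, and at 1.44 in microRNA tumor 2, inside their range of 1.28 to 1.96. Of the 15 pluripotency genes, 9 were measured, with a median of -0.03. Pou5f1, Sox2, Lin28b, Zfp42, Dppa3 and Fgf4 did not reach the filter on dim probes. Sall4, a zinc finger factor of embryonic stem cells, was at -1.68 and -1.50 inside a control range of -1.88 to -0.85.

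Genes linked to miR-369 were few. Tnf, whose message carries an AU-rich element that miR-369-3p is reported to act on, was at -0.30 and -1.35 against -1.33, -0.40 and 0.04, a difference of -0.34 (-1.16 to 0.48). Hnrnpa2b1, an RNA-binding splicing factor, differed by -0.08 (-0.48 to 0.31). The list of 5 had a median of -0.08. Its mean level was 3.64 in microRNA tumor 1, with 6 control tumors below it, and 2.97 in microRNA tumor 2, just below the lowest control tumor at 2.99.

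**Figure D4:**
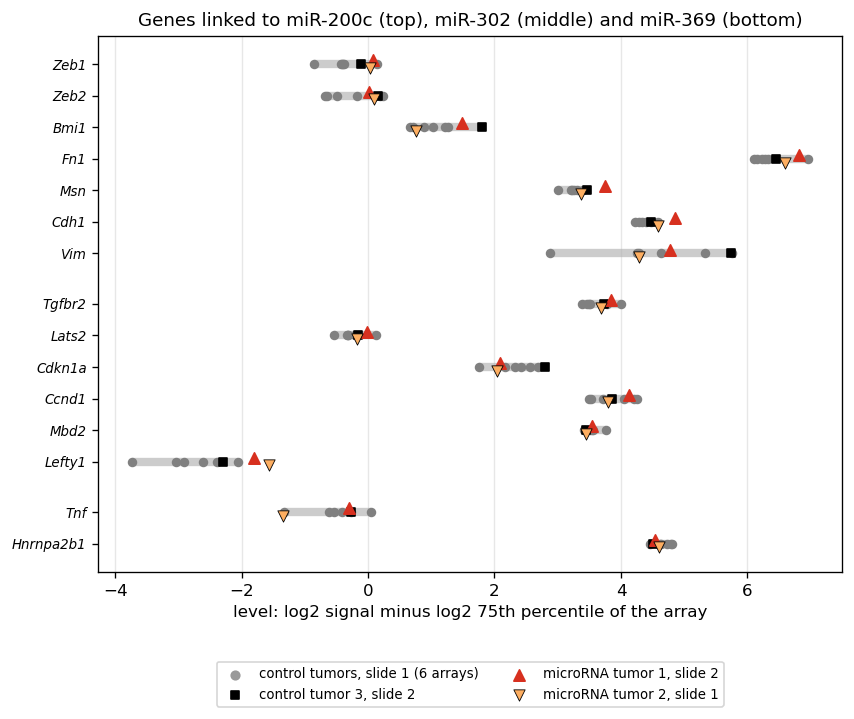
Level of 15 genes linked to miR-200c (top), miR-302 (middle) and miR-369 (bottom) in each tumor, on the log2 scale relative to the 75th percentile of the array. Grey bars span the 7 control tumors; both microRNA tumors lie above the bar in Cdh1 and Lefty1, at least 1 lies on it in the other 13, and no gene was called.

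Genes that load or carry out microRNA silencing were close to control levels. The 13 genes had a median of -0.12, 11 lower and 2 higher. Their mean level was 0.45 in microRNA tumor 1, below the lowest control tumor at 0.51, and 0.76 in microRNA tumor 2, inside the range up to 0.91. Ago2, the Argonaute protein that can cut its target, was at 1.90 and 2.74 against 1.78 to 2.91. Tnrc6a, a scaffold of the silencing complex, was at 0.02 and 0.83 against -0.08 to 1.09. Ago1 differed by -0.29 (-0.87 to 0.29), and Prkra, a partner of Dicer, by 0.35 (-0.20 to 0.90).

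Double-stranded RNA is known to raise interferon responses, so interferon-stimulated genes and RNA sensors were read beside the targets. Oas2, an interferon-induced enzyme activated by double-stranded RNA, was at -0.63 in microRNA tumor 1, inside the control range of -1.15 to 1.01, and at 2.38 in microRNA tumor 2, above it. Oasl2, Oas1a and Dhx58 had the same arrangement, with microRNA tumor 2 at 2.30, 4.75 and -0.57, above control maxima of 2.01, 4.47 and -0.78, and microRNA tumor 1 inside the range. Within slides the Oas2 difference was 2.58 on slide 1 and -1.64 on slide 2. Over all 21 interferon-stimulated genes the median difference was 0.17 (0.33 and -0.82 within slides), and the list's mean level, -0.03 and 0.47, lay inside the range of -0.61 to 0.91. The 9 sensors of foreign RNA had a median of 0.12; Tlr3 differed by 0.35 (-0.42 to 1.12) and Ifih1 by 0.27 (-0.62 to 1.16). Normal tissue had Oas2 at 2.13 ± 0.67 (SD, n = 2) in microRNA mice and 0.41 ± 0.71 (SD, n = 2) in control mice.

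Loss of Apc frees beta-catenin, which drives Wnt target genes, so these were read as the output of the tumor's own lesion. Of 23 measured Wnt feedback and target genes, 19 were lower and 4 higher in the microRNA tumors, with a median of -0.29. None was called, and no member had both microRNA tumors outside the control range. Axin2, a scaffold of the beta-catenin destruction complex, was at 0.93 and 1.03 against 0.09, 1.76 and 2.87, a difference of -0.56 (-1.93 to 0.80). Nkd1, a feedback inhibitor, was at 3.57 and 3.87 against 3.26, 4.96 and 5.85, a difference of -0.86 (-2.14 to 0.41). The transcription factors Sp5 and Lef1 differed by -0.98 (-2.48 to 0.53) and -0.86 (-2.37 to 0.65). Apcdd1, a membrane inhibitor of Wnt, was farthest, at -1.34 and -1.29 against -1.86, 0.53 and 3.05. The ligand Wnt10a was at 2.07 and 1.38, inside a control range from -0.79 to 5.31. For all of these the spread among control tumors was wider than the difference, and the list's mean level, 2.05 and 1.85, had 3 control tumors below it and 4 above for both microRNA tumors. The list median was -0.32 and -0.83 within slides 1 and 2, and -0.15 without control tumor 6.

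Apc itself was at -1.47 and -1.02 against -1.58, -1.44 and -1.26. Where its probe lies relative to the deleted part was not examined, so this value checks nothing about the deletion. The 8 genes of the destruction complex had a median of 0.00. Myc differed by -0.18 (-0.90 to 0.55). Crypt stem cell markers had a median of 0.20, 10 of 12 higher. Lgr5, the receptor that marks cycling crypt stem cells, was at 2.87 and 2.19 inside 1.05 to 3.19. Lrig1, which restrains EGF receptors in crypt stem cells, was at 2.69 and 2.50, with the highest control tumor at 2.50, a difference of 0.80 (-0.12 to 1.71).

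The 27 proliferation genes, of DNA replication and mitosis, had a median of 0.10, with -0.22 within slide 1 and 0.22 within slide 2. Their mean levels, 2.65 and 2.10, lay inside the control range of 1.89 to 2.70. Mki67, a marker of cycling cells, was at 4.92 and 4.44 against 4.32, 4.47 and 4.93. The replicative helicase subunit Mcm6 was at 5.35 in microRNA tumor 1, above all control tumors, and at 4.49 in microRNA tumor 2, inside their range of 4.23 to 5.03. The mitotic kinesin Kif11 differed by 0.51 (-0.22 to 1.25). The 12 measured p53 targets had a median of -0.01.

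Goblet cells secrete the mucus layer of the colon, and their genes were read as a measure of that lineage. Of 16 measured goblet genes 15 were higher, with a median difference of 0.89 (1.09 and 1.52 within slides), and none was called. Agr2, a disulfide isomerase needed for mucin folding, was at 8.06 and 7.89 against 5.37, 7.16 and 7.62, above all control tumors, a difference of 1.18 (0.12 to 2.24). Zg16, a lectin of the mucus, was at 8.12 and 8.07 against 4.83, 6.66 and 8.61, a difference of 1.60 (-0.17 to 3.38). Klk1, a kallikrein of goblet cells, was at 6.51 and 6.63 against 2.47, 4.94 and 6.61. The mucin Muc2 was at 6.37 and 7.95 against 3.20, 6.76 and 7.51, and the trefoil peptide Tff3 at 7.77 and 7.26 against 4.79, 6.73 and 7.64. The list's mean level was 5.16 in microRNA tumor 1, with 6 control tumors below it, and 5.70 in microRNA tumor 2, just above the highest control tumor at 5.67. Normal tissue had list levels of 5.97 to 6.57 on its 4 arrays. In a piece of tissue, more goblet cells and more RNA per goblet cell cannot be told apart, and the same holds for every cell type below. The median without 1 array ran from 0.56 (without microRNA tumor 2) to 1.28 (without microRNA tumor 1).

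Other epithelial programs lay inside the control range. The 20 mature colonocyte genes had a median of 0.22 and a mean level of 2.44 and 2.81, where control tumors ran from 0.85 to 4.69. Slc51a, a bile acid exporter subunit, was not well above background on either microRNA tumor (-6.08 and -5.30) but was on 4 of 7 control tumors, which reached 4.47. Anpep, a brush border aminopeptidase, was at 0.04 and 1.01 against 0.77, 1.49 and 2.37, a difference of -1.15 (-2.22 to -0.09). Enteroendocrine genes had a median of 0.21, with Insl5, a hormone of colonic L cells, at 1.36 and 1.50 against -4.87, -0.69 and 1.57, and Sct, the secretin gene, at 0.05 and -0.09 against -0.60, 0.53 and 4.89. Mptx1, a mucosal pentraxin, was at 1.68 and 4.17 inside -5.80 to 4.52. The Reg family lectins had a list median of -0.80 over 7 genes (-0.57 and -0.17 within slides, and -0.16 with normexp background correction), and mean levels of -0.40 and -0.42 inside -1.47 to 1.54.

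Position along the colon is known to set Hox and Cdx levels. Hoxb13, a factor of the distal colon, was at 6.17 and 6.29 in the microRNA tumors. Control tumors ran from -4.53 through 6.40 to 6.63, so both microRNA tumors were among the high values, and the control group held low ones too. The 11 posterior Hox genes had mean levels of -0.96 and -1.80 inside -2.82 to 0.20. Hoxd9 was not well above background on either microRNA tumor (-5.41 and -6.75) but was on 5 of 7 control tumors, which ran from -6.59 through -3.07 to -1.23, so the groups overlapped. Cdx2, the intestinal identity factor whose promoter drives the Cre here, was at 1.81 and 1.80 inside -1.23 to 5.57. Tumor site was not recorded, and its part in the results above was not tested.

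Grem1, a secreted inhibitor of bone morphogenetic proteins made by stromal cells, was at 5.29 and 4.37 against 2.00, 3.53 and 3.88. Both microRNA tumors were above all control tumors, with a difference of 1.53 (0.56 to 2.51) and within-slide values of 1.11 and 1.75, and it did not pass the test (adjusted p = 0.9995). The other members of the activin, BMP and TGF-beta list did not lie with it, as the median over 16 genes was -0.09. Smad7, a feedback inhibitor of TGF-beta signalling, was at 0.67 and 0.85 against 0.77, 1.30 and 2.19.

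All 13 smooth muscle markers were higher in the microRNA tumors, with a median difference of 1.16 (1.22 and 1.04 within slides, and 0.77 without microRNA tumor 2), and none was called. With the replicate number as a block the median was -0.39. Calponin (Cnn1) was at 5.44 and 5.32 against 1.40, 3.23 and 5.56, a difference of 1.96 (0.13 to 3.79). Transgelin (Tagln) was at 6.82 and 6.31 against 3.74, 5.19 and 6.49, and the enteric actin Actg2 at 5.03 and 5.35 against 2.70, 3.87 and 5.55. The list's mean level, 1.90 and 2.29, had 5 of 7 control tumors below it for both microRNA tumors and lay inside the range of -0.0036 to 2.57. The 4 normal arrays, which hold the muscle wall in unknown amount, were at 3.09 to 4.25. Fibroblast and collagen genes had a median of 0.25, 12 of 15 higher. Fibulin 1 (Fbln1) was at 2.27 and 1.79 against 0.99 to 1.96, and the proteoglycan decorin (Dcn) at 6.86 and 5.98 against 5.11 to 6.56. The part of smooth muscle in the Grem1 and Col8a1 values was not tested.

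Skeletal muscle markers had a median of 0.26 over 14 genes, and the members went both ways. Myh8 is given above, while Tnnc2, the fast troponin C, was at -5.90 and -4.69 and not well above background on either microRNA tumor, against -5.10, -3.48 and -3.06, so the groups overlapped. The list's mean level was -3.84 and -3.30, with microRNA tumor 2 above the control maximum of -3.45. Adipocyte markers lay low in both groups, at -2.85 and -2.75 inside -3.37 to -0.07. The adipokine Adipoq, a defining marker, was not well above background on either microRNA tumor (-5.73 and -6.67) but was on 1 control tumor. Enteric neuron and glia markers (-2.54 and -1.88 inside -3.17 to -1.59) and squamous markers (-2.63 and -2.96 inside -3.56 to -2.32) were within the control range as well.

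Some markers of inflammation lay apart in 1 microRNA tumor only. S100a8 and S100a9, the calprotectin subunits of neutrophils, were at 3.23 and 5.14 in microRNA tumor 1, inside control ranges of 1.75 to 4.32 and 3.90 to 6.24. In microRNA tumor 2 they were at 0.85 and 3.13, below every control tumor. The 14 neutrophil markers had a mean level of -0.04 and -0.81, the latter below the lowest control tumor at -0.63, with a median difference of -0.18 (-0.64 and -0.04 within slides). Mmp9 is a neutrophil product as well, and it was low in both. Ccl2, a chemokine for monocytes, was at 2.57 in microRNA tumor 1, above all control tumors, and at 1.45 in microRNA tumor 2. Spp1, osteopontin, was at 3.13 and 0.39 against -1.72, -1.12 and 2.57, and its second highest control tumor lay below microRNA tumor 2. The 22 inflammatory mediators had a median of -0.17, and the 17 macrophage and dendritic cell markers 0.05, with Adgre1 (F4/80) at 1.22 and 0.90 against -0.09, 0.34 and 1.46.

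**Figure D5:**
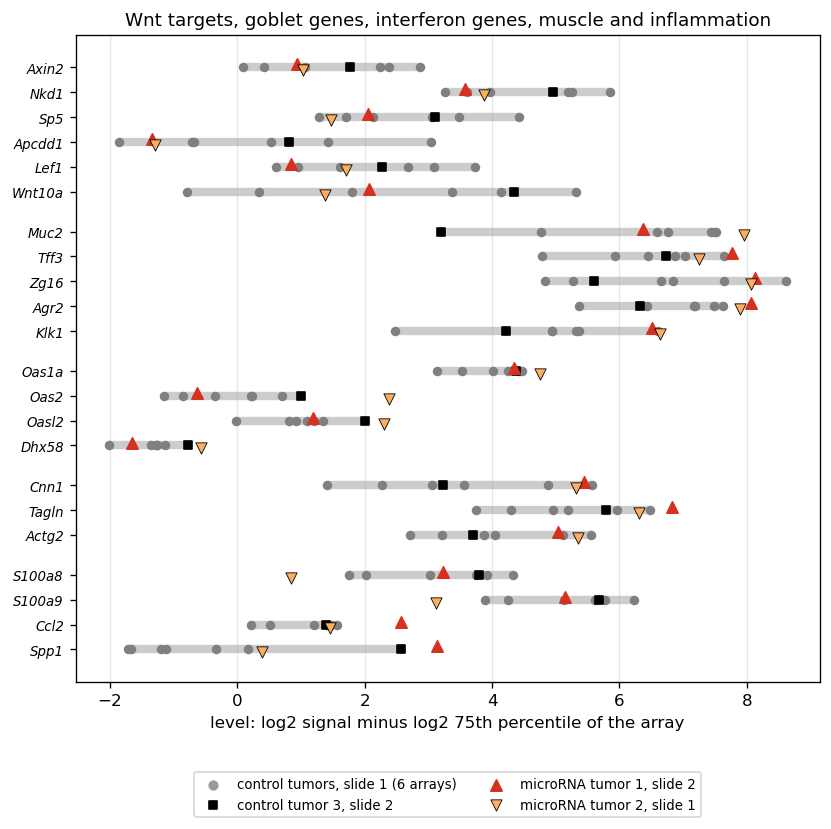
Level of Wnt target genes, goblet cell genes, interferon-stimulated genes, smooth muscle genes and inflammatory genes (groups from top to bottom) in each tumor, on the log2 scale relative to the 75th percentile of the array. Grey bars span the 7 control tumors. Both microRNA tumors lie in the lower part of the bar for Wnt targets and in the upper part or past it for Zg16, Agr2 and Klk1, and in the interferon genes only microRNA tumor 2 lies past the bar.

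Lymphocyte genes were uneven. Gzma, a granzyme of cytotoxic cells, was at -2.98 and -3.66 against -2.94, -1.35 and 1.08, below all control tumors, a difference of -2.33 (-4.62 to -0.04); the 17 T and NK cell markers had a median of -0.27. B cell markers had a median of 0.96 over 11 genes, 10 higher (1.58 and 0.88 within slides). It ran from 0.52 without microRNA tumor 2 to 1.60 without microRNA tumor 1, and was 0.42 with normexp background correction. Ms4a1 (CD20) was at -2.40 and -0.69 against -6.53, -4.37 and 0.06 and was well above background on 4 of 7 control tumors. Fcmr, the receptor for IgM, was at -3.48 and -1.29 against -6.63, -5.91 and -0.02. The list's mean level, -2.85 and -1.33, lay inside the control range of -4.35 to -0.64. Prdm1, a regulator of plasma cells that epithelial cells also make, was at -0.04 in both microRNA tumors and at 0.29, 0.55 and 1.64 in control tumors, while 7 of 8 plasma cell markers were higher, with a median of 0.40. Mast cell markers had a median of -0.63, 8 of 10 lower (-0.75 and -1.03 within slides, and -0.32 without microRNA tumor 2). The list's mean level was -1.33 in microRNA tumor 1, with 4 control tumors below it. In microRNA tumor 2 it was -1.66, below the lowest control tumor at -1.62. Control tumor 3, the control on slide 2, had the highest control level at -0.48. The mast cell proteases Mcpt1 and Tpsb2 were at -1.17 and -1.37 against -1.14 to 2.11, and at -1.99 and -1.33 against -1.46 to 0.34. No immune gene was called.

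Across the 46 lists, the median differences within the slides had the same sign in 29. It was above 0.5 on both slides in 3 lists (smooth muscle, goblet and B cell) and below -0.5 on both in 1 (mast cell). Each within-slide value rests on 1 microRNA tumor, and on slide 2 on 1 control tumor as well. These medians did not hold in every setting. With the replicate number as a block, only control tumors 1 and 2 bear on the difference. The medians were then -0.39 for smooth muscle, 0.19 for goblet, -0.16 for B cell and -0.31 for mast cell markers. For Wnt feedback and target genes the median was 0.44 in that setting.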

How the data were processed

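Gene expression was measured on 13 arrays, of which the 9 tumor arrays are compared here. Feature Extraction 10.7.3.1 produced the array files, per the file headers, and what the authors deposited is fluorescence intensity on a linear scale, subtracted for background and detrended within each array, with no scaling between arrays. The series table held the same values.

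Control spots (3671) were dropped, and spots of a probe were averaged. The log2 75th percentile of each array was subtracted. Probes well above background on 2 or more arrays were kept (35191 of 55681), and the brightest probe stood for a gene. Names came from the RefSeq table of GRCm38.p6 (26004 probes matched by accession, 3093 by symbol, 583 by synonym, 26001 unnamed). Coordinates are those of the files, on mm9.

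limma 3.58.1 (lmFit, eBayes, R 4.3.3, data.table at 1.17.8) was fitted to 4 group means over all 13 arrays, with Benjamini-Hochberg adjustment over 25370 genes. A gene dim on every array of 1 group has only a bound, written "at least". The procedure was tested on simulated data. Members and lists were chosen with earlier results of these data known. Genes named are a part of those the rule took: the called genes, filled up to 10 a direction by smallest p among genes without overlap; up to 4 members of each list; and a fixed set of target, Wnt and position genes. Alternatives were other background, scaling and filter settings, other fits, slide and number blocks, and each array left out. The number of arrays limits the precision. Figures used Python 3.11.15 and matplotlib 3.10.9.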

Additional observations from a re-analysis of the deposited data

Results flagged for a closer look

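Among the named genes, lists and array measures, 136 sets of 7 control tumors were examined for a tumor far from the rest, and 11 held one, by a Dixon ratio (gap to the nearest tumor over the whole range) above the 95% critical value; chance gives about 1 in 20. Control tumor 3 was highest in Adgre1 (0.583) and lowest in Tnrc6a (0.598) and Tnnc2 (0.727). Control tumor 1 was highest in Mbd2 (0.581), Mcpt1 (0.614), Adipoq (0.762) and the mean of the EGF receptor ligands and receptors (0.708). Control tumor 2 was highest in Fcmr (0.670) and the B cell marker mean (0.590), control tumor 4 in Fn1 (0.607) and control tumor 5 in Sall4 (0.683).

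The difference between microRNA and control mice was not the same in tumor and normal tissue in 2 of the 88 named genes, by the interaction term of the limma fit. Anpep, the brush border aminopeptidase, differed by -1.15 in tumors and by 5.79 in normal tissue, an interaction of -6.94 (adjusted p = 0.00475). Myh8, the perinatal myosin, differed by 1.76 in tumors and by -3.96 in normal tissue, an interaction of 5.72 (adjusted p = 0.00707). In both genes the normal-tissue difference passed the test (adjusted p = 0.000862 and 0.00591) and the tumor difference did not. Between the normal samples, 2 arrays against 2, whole marker lists moved as well: the median difference was 2.76 for small intestine and proximal genes, -2.28 for skeletal muscle, -2.23 for squamous and -2.14 for B cell markers, and their part in the values of both genes was not tested. Myh8 was not well above background in any control tumor. Of all 25370 genes, 74 had such an interaction.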

How the results depend on the processing

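The count of called genes was 1 with quantile normalization, median scaling, a filter set by group, averaging over a gene's probes and the slide as a block, the gene being Olfr1055 each time. It was 0 with normexp background correction (where the Olfr1055 difference was 0.60), with the deposited table without scaling, in the 9 tumors alone, with trend and robust estimation, within slide 2, and with the array-name number as a random block (correlation 0.303). It was 2 without a filter on dim probes (Npy6r added) and within slide 1 (Asrgl1 added). With the replicate block it was 0 of 25370, with 1267 genes at an unadjusted p under 0.05. No label states a pairing by replicate number. Deviations of same-numbered tumors from their group means correlated at -0.156 and 0.327. The deviations of the 2 microRNA tumors are mirror images and also differ by slide, so these correlations cannot show whether the numbers mark a pairing. Leaving out 1 array gave 0 to 1 called genes; only without microRNA tumor 1 was the gene still called. Across the alternatives with a call count of 0, the genes at an unadjusted p under 0.05 ran from 240 to 1848 in limma.

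Genes with both microRNA tumors outside the control tumors numbered 633, 397 without scaling and 1054 without the dim filter. Leaving out 1 array gave 708 to 5937: 3936 without microRNA tumor 1 and 5937 without microRNA tumor 2, where 1 tumor alone has to lie outside, and 1132 without control tumor 2 and 1701 without control tumor 3, where 6 tumors bound the range.

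For the named genes, 1905 of 2017 values under an alternative counted as unchanged, and 93 changed sign. Fitting the tumors alone, or with trend and robust estimation, cannot move a difference. These settings raise the unchanged count without testing the difference. All 88 genes were unchanged without a filter on dim probes as well. Of 88 genes, 70 were unchanged with the replicate block and 68 within slide 2, and 18 changed sign in each. Unchanged meant within 1 SD of the control tumors from the value reported or, for Olfr1055, still called. For list medians, 1026 of 1058 lay within 1 SD of the list's mean level among control tumors from the value reported, and 143 changed sign. The fits that cannot move a gene's difference cannot move a list median either, and they are in this total. Of 46 lists, 41 lay within that distance with the replicate block, and 21 changed sign. Within slide 2 the counts were 40 and 13. Scaling moved the median of all genes to 0.067 (median) and -0.17 (none). Genes near background have differences that the normexp setting shrinks, and dim signal limits them.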
